A study of Mus musculus with 6 samples.

Results

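The p53 target genes are a fixed list of 31 genes that the transcription factor p53 is known to switch on. Their levels were read from the RNA of KSL cells with and without TIF1b, the protein that the gene Trim28 encodes. Each gene was found by its symbol, through the RefSeq accession of its array probe, and is represented by its brightest probe. All 31 had a probe, among 20284 genes named in this way. The list holds 12 genes of apoptosis, 8 of cell cycle arrest and DNA repair, and 11 of p53 feedback, metabolism and other roles.

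KSL cells are c-Kit+ Sca1+ Lineage- cells, the blood-forming fraction that holds the hematopoietic stem cells. They were sorted from mice of C57BL6 background. The fetal liver arrays are 1 WT (Tie2-Cre, Tif1b w/w) and 1 KO (Tie2-Cre, Tif1b f/f). Tie2-Cre is active in the endothelial and blood-forming lineages. The adult bone marrow arrays are 2 WT (CreERT, Tif1b w/w) and 2 KO (CreERT, Tif1b f/f). CreERT is a Cre that needs an estrogen receptor ligand to act, and all bone marrow samples carry it. For bone marrow replicate 2 the label spells the gene Tif2b, which was read as Tif1b. The labels give no age, sex, inducing agent or time after deletion, and do not say that arrays of a group came from separate animals. P-values may therefore measure only a technical spread. Each slide carried 1 WT and 1 KO array of 1 tissue, so the 3 slides are also the 3 WT and KO pairs.

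p53 is held low in unstressed cells by MDM2, a ubiquitin ligase that p53 itself induces. DNA damage and other stress release p53, which then switches on genes for cell cycle arrest, repair, altered metabolism or apoptosis. In blood stem cells p53 is known for restraining division and for the loss of cells after irradiation. TIF1b is a corepressor that is recruited to chromatin by zinc finger proteins and is also known to bind MDM2.

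The p53 protein binds a pair of half-sites, each read here by the p53 half-site consensus, which is its own reverse complement. The 250 bases before the transcription start were available from RefSeq on GRCm38.p6 for 25 of the 31 genes, in 32 windows. Those not matched were Pmaip1, Pvt1, Rrm2b, Tnfrsf10b, Trp53inp1 and Zmat3. The half-site letters were found in 9 of the 25 genes, or 36.0%, and in 8.20% of all 27025 genes with a window. By window it was 9 of 32, against 7.13% of 32851. A pair of half-sites, counted only with a short spacer or none between them, was found in none of the 32 windows. The share of all windows was 0.0639%. The half-sites of Rps27l share a window but end 200 and 97 bases before the start, too far apart to count. The runs below are shown because they carry these letters in the genes described next. They are written 5′ to 3′ on the gene's strand, and the capitals mark the half-site.
Aen: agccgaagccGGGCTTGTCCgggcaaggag
Bax: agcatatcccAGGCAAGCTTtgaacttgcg
Ccng1: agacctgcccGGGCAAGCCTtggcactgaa
Ddit4l: caactcccagGGGCTTGCCTgggcccctgc
Ei24: cgtgcggcccGGGCATGCCC
Mdm2: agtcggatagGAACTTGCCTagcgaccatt
Polk: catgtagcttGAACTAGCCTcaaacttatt
Rps27l: ctttgggctcGGGCTTGCTTtccttcaggc
Rps27l: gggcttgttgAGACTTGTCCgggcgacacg
Sesn1: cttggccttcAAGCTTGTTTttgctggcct
On GRCm38.p6 the Aen run lies at chr7:78895927-78895956 on the plus strand and the Bax run at chr7:45467080-45467109 on the minus strand. The Ccng1 run lies at chr11:40755452-40755481 on the minus strand and the Ddit4l run at chr3:137623572-137623601 on the plus strand. The Ei24 run lies at chr9:36797335-36797354 on the minus strand and ends at the start site. The Mdm2 run lies at chr10:117710925-117710954 and the Polk run at chr13:96519399-96519428, both on the minus strand. The Rps27l runs lie at chr9:66946193-66946222 and chr9:66946296-66946325, and the Sesn1 run at chr10:41887256-41887285, all on the plus strand. A match is a description of these letters and not evidence of binding.

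Levels are log2 intensities relative to the array's 75th percentile, which is 0, and differences are KO minus WT on that log2 scale. The unscaled 75th percentile signal was 219 and 211 on the fetal liver arrays, 281 and 325 in bone marrow pair 1, and 737 and 743 in pair 2. Between 24383 and 31419 probes per array were well above background by Agilent's flag. The array labelled bone marrow WT replicate 1 has 2 deposited sources that differ. Its column in the authors' value table lay within 1% of its scanner file for 1.39% of probes, counting ratios of 0.1 or more, while the other 5 arrays reached 99.984% or more. Its description line names an Hp1a knockdown in c-Kit+ Lineage- cells, and the line of KO replicate 1 from bone marrow names an Hp1g knockdown. Kit, a gene that defines the sorted cells, read 1.30 by its scanner file and 4.16 by its table column. The other arrays had 4.17 to 4.50. Ly6a, the gene of Sca1, also defines these cells and went the other way. It read 4.48 by the scanner file of that array and 3.36 by its table column. The other bone marrow arrays had 3.60 to 6.04, and the fetal liver arrays 0.31 and 0.77. The summed level of 16 B lymphoid markers was 483 by its scanner file but 26.9 by its table column, where the other arrays had 16.1 to 65.1. Both sources were therefore carried through. WT 1 below stands for the library labelled bone marrow WT replicate 1, and its source is named beside each value. Of the members, 7 differed at least 2-fold between the 2 sources: Pmaip1, Fas, Tnfrsf10b, Aen, Trp53inp1, Rps27l and Pvt1.

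Trim28, the targeted gene, was low on all KO arrays. It read 5.97 in WT and 1.68 in KO of fetal liver. In bone marrow it read 5.18 by the table and 2.45 by the scanner file in WT 1, 1.28 in KO 1, 5.55 in WT 2 and 0.75 in KO 2. Over bone marrow the difference was -4.34 ± 0.31 (SE, 2 WT and 2 KO arrays, limma, adjusted p = 0.0148) with the table. By the scanner files it was -2.98 ± 1.07 (adjusted p = 1.00). The scanner file of WT 1 thus lay nearer to the KO arrays than to the other WT arrays, against its label, while its table column lay with the WT arrays.

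Of the 31 members, 29 were measured in bone marrow, meaning well above background on all arrays of at least 1 group, and 28 in fetal liver. Eda2r, a receptor of the TNF receptor family, was well above background on no array. Ddit4l, an inhibitor of mTOR signalling, was above it only on the bone marrow pair 2 arrays, at -2.51 in WT and -3.26 in KO. Rrm2b, a ribonucleotide reductase subunit that supplies nucleotides for repair, was above it on the bone marrow arrays and on neither fetal liver array.

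**Figure D1:**
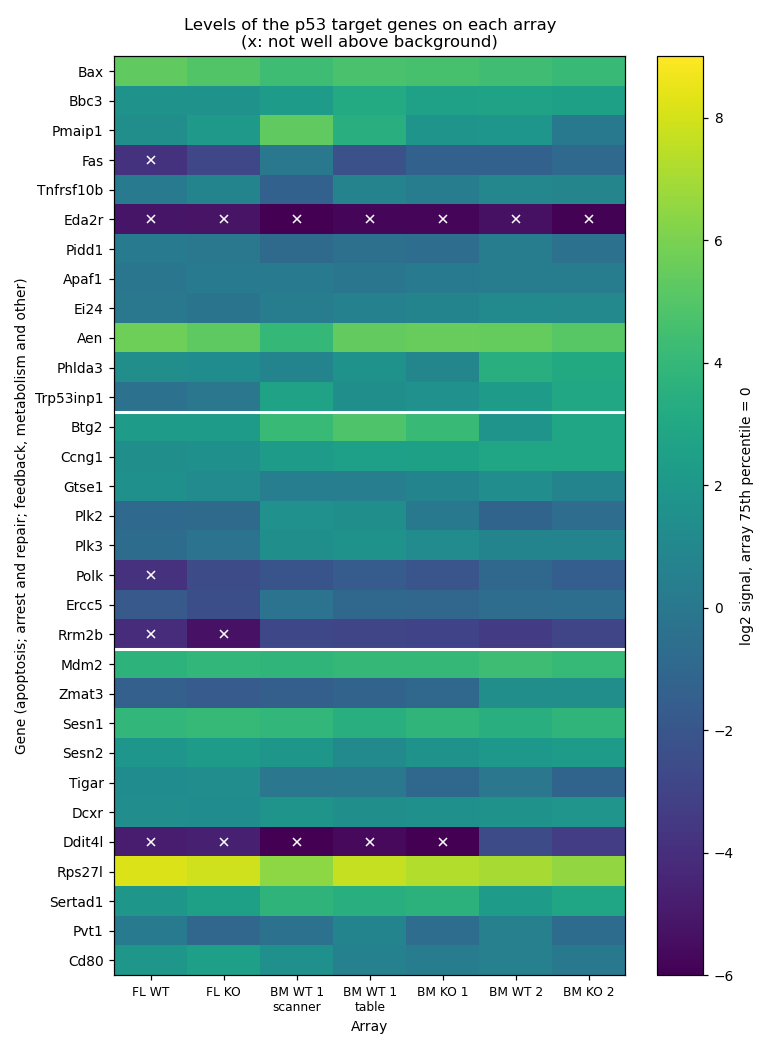
Level of each of the 31 p53 target genes (rows, ordered by role, with white lines between roles) on each array (columns), as log2 signal with the array's 75th percentile at 0. FL is fetal liver and BM bone marrow, and BM WT 1 is shown from both sources. A white x marks a probe not well above background. Most rows keep a similar shade between WT and KO of a pair, while Eda2r is marked on every array.

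Loss of TIF1b was not accompanied by a common rise of the p53 targets. In bone marrow with the value table, no member of 29 passed the threshold of an adjusted p under 0.05 (limma, Benjamini-Hochberg over 12784 genes), where 0.939% of all genes passed. At an unadjusted p under 0.05 there were 2, Pvt1 and Tigar, both lower in KO, beside 1414 of 12784 genes. From the scanner files no member and 0% of 13011 genes passed. There 1 member (Tigar) and 548 genes had an unadjusted p under 0.05. With the slide as a block, which compares WT and KO within each slide, 3 of 29 members passed with the table: Pmaip1, Tigar and Pvt1, all lower in KO. The background in that fit was 7.74% of genes. Its spread, like that of the blocked interaction below, rests only on how far apart the 2 pair differences of a gene lie. limma moderates that spread over all genes. An unadjusted p under 0.05 was found for 7 of 29 members, beside 3058 of 12784 genes. With the scanner files and the block, no member and 0% of genes passed, and 1 member and 702 of 13011 genes had an unadjusted p under 0.05.

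The members were spread on both sides of 0 in every pair. In bone marrow pair 1 by the table, 13 of 29 members were above WT, beside 51.2% of all genes. The median difference was -0.09, beside 0.01 over all genes. By the scanner file again 13 of 29 were above WT, beside 60.3%, with a median of -0.10 beside 0.22. In pair 2, 11 of 29 were above WT, beside 39.8%, and the median was -0.07, beside -0.09 over all genes. In fetal liver 16 of 28 were above WT and the median was 0.05, beside -0.07. There the background was 42.2% of genes above WT. These shares describe the chosen list and carry no test.

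Between the replicate pairs the members often disagreed. By the table, 12 of 29 were lower in KO in both bone marrow pairs (background 39.2%), 7 were higher in both (background 29.8%), and 10 had opposite signs. With the scanner file 6 were lower in both (background 22.7%) and 1, Ccng1, was higher in both (background 22.8%). Only Pmaip1 and Pvt1 were at least 2-fold lower in both pairs of the table, or 2 of 29, against 2.86% of genes. Replicates on different slides lay further apart than WT and KO on 1 slide. The median absolute gap between replicates was 0.532 in WT (table) and 0.436 in KO, and the median absolute difference between WT and KO was 0.310 in pair 1 and 0.352 in pair 2. The gap between replicates had the same sign in WT and KO for 25 of 29 members.

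**Figure D2:**
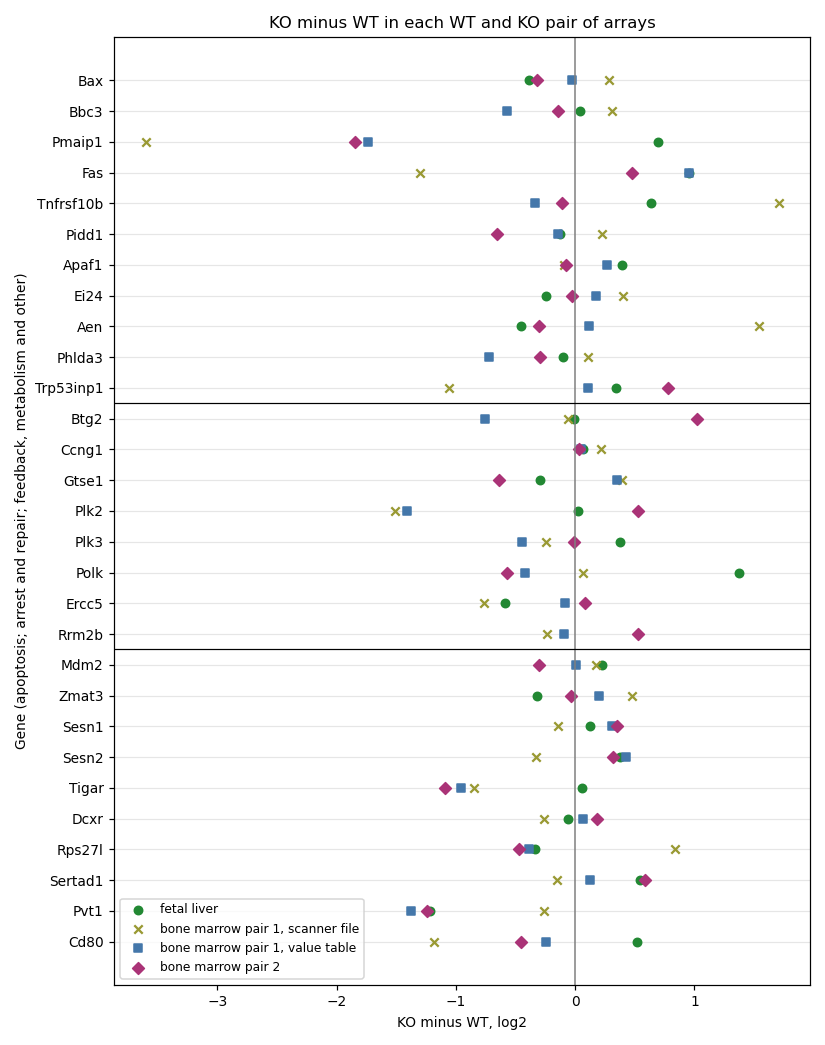
KO minus WT difference (log2, horizontal axis) of each measured member (rows, by role) in fetal liver and in both bone marrow pairs, with pair 1 from each source for WT replicate 1. Each mark is 1 WT and 1 KO array, so there are no error bars. Pmaip1, Tigar and Pvt1 lie to the left of 0 in each bone marrow pair, and most other members lie around 0.

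Among the apoptosis genes, Pmaip1 had the largest difference in bone marrow. Pmaip1 encodes NOXA, a BH3-only protein that neutralises the survival factor MCL1. It read 1.40 in WT and 2.10 in KO of fetal liver. The bone marrow levels were 3.47 by the table and 5.34 by the scanner file in WT 1, 1.74 in KO 1, 1.90 in WT 2 and 0.06 in KO 2. KO was lower than WT on the same slide in both pairs, but KO 1 lay just under WT 2. The pair differences were -1.74 (table) or -3.60 (scanner) and -1.84. Over both pairs of the table this was -1.79 ± 0.74 (SE, 2 against 2 arrays, limma), a 3.46-fold lower level, with an adjusted p of 0.471. With the slide as a block the SE was 0.165 and the adjusted p 0.00774. The scanner files gave -2.72 ± 1.27, with an adjusted p of 1.00 and, with the block, 0.702. Left without bone marrow KO 1 or WT 2, the table's call changed, with an adjusted p of 0.0240 and 4.99e-04. Without WT 2 the scanner files gave -4.44 and an adjusted p of 2.80e-07. The lone array of a group is then assumed to vary like the others.

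In fetal liver Pmaip1 went the other way, by 0.70. The difference between the tissues in its response was -2.49 ± 1.31 (table, limma interaction, adjusted p = 0.969). With the block it was adjusted p = 0.0341, and 1 of 29 members and 2.80% of genes passed. Without the block no member passed with either source, and 0% of genes did. There, 2 members had an unadjusted p under 0.05 with the table, beside 955 of 13502 genes. None did with the scanner files, beside 356 of 13663 genes. The scanner value for Pmaip1 was -3.42 ± 2.23 (adjusted p = 1.00). The fetal liver side of each such test is 1 WT and 1 KO array, assumed to vary like bone marrow.

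The BH3-only gene Bbc3 (PUMA) and the pore-forming Bax, the other core apoptosis targets, differed less. Bbc3 read 1.66 and 1.69 in fetal liver WT and KO. Its bone marrow levels were 3.17 (table) or 2.30 (scanner) in WT 1, 2.60 in KO 1, 2.67 in WT 2 and 2.52 in KO 2. The bone marrow difference was -0.36 ± 0.29 with the table (adjusted p = 0.845) and 0.08 ± 0.38 with the scanner files (adjusted p = 1.00). The sign thus depends on the source. Bax read 5.31 and 4.93 in fetal liver. On the bone marrow arrays it read 4.67 (table) or 4.36 (scanner) in WT 1, 4.65 in KO 1, 4.40 in WT 2 and 4.08 in KO 2. The WT and KO arrays overlapped, and the difference was -0.17 ± 0.31 with the table (adjusted p = 0.981) and -0.02 ± 0.40 with the scanner files (adjusted p = 1.00).

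The death receptor Fas had the largest positive mean difference over the table's pairs, though it did not pass the test. It read -3.78 in WT, not well above background, and -2.82 in KO of fetal liver. Set against the lowest signal well above background on the WT array, this is at least 1.36-fold higher. In bone marrow Fas read -2.28 (table) or -0.01 (scanner) in WT 1, -1.32 in KO 1, -1.36 in WT 2 and -0.88 in KO 2. The difference was 0.72 ± 0.39 with the table (limma, adjusted p = 0.650, and 0.104 with the block) and -0.41 ± 0.57 with the scanner files (adjusted p = 1.00). The direction turns with the source of WT 1.

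Tnfrsf10b, the mouse receptor for the death ligand TRAIL, read 0.14 and 0.77 in fetal liver WT and KO. Bone marrow gave 0.71 (table) or -1.34 (scanner) in WT 1, 0.37 in KO 1, 0.92 in WT 2 and 0.81 in KO 2. Its sign in pair 1 also turned with the source, at -0.34 and 1.71. Phlda3, an inhibitor of the survival kinase AKT, separated the slides more than the genotypes. It read 1.43 and 1.32 in fetal liver, 1.62 (table) or 0.79 (scanner) and 0.89 in pair 1, and 3.38 and 3.08 in pair 2. Both pair 2 arrays were above both pair 1 arrays, and the difference between genotypes was -0.51 ± 0.88 with the table (limma, adjusted p = 0.981, and 0.192 with the block) and -0.10 ± 1.14 with the scanner files (adjusted p = 1.00).

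The remaining apoptosis members differed by at most 0.45 in fetal liver in either direction. In the table's pairs Apaf1, the core of the apoptosome, differed by 0.26 and -0.07. Pidd1, which activates caspase-2, differed by -0.15 and -0.66. Ei24, an endoplasmic reticulum protein, differed by 0.17 and -0.03. Aen, a nuclease of apoptotic cells, differed by 0.12 and -0.30, but by 1.54 in pair 1 with the scanner file. Trp53inp1, a cofactor that promotes p53 activity, differed by 0.11 and 0.78. In pair 1 with the scanner file it differed by -1.06. Its second probe gave -0.16 and 1.79, and -2.01 in pair 1 with the scanner file. As a group the 11 measured apoptosis genes had a median of 0.04 in fetal liver, -0.03 in pair 1 by the table, 0.23 by the scanner file and -0.14 in pair 2. KO was above WT for 6, 5, 7 and 2 of the 11, beside 42.2%, 51.2%, 60.3% and 39.8% of all genes. The medians over all genes were -0.07, 0.01, 0.22 and -0.09 in the same order.

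The medians of the arrest and repair genes were 0.03 in fetal liver over 7 genes, and over 8 genes -0.25 in pair 1 by the table, -0.15 by the scanner file and 0.06 in pair 2. KO was above WT for 4 of 7 and for 2, 3 and 5 of 8, beside the shares and medians of all genes given for the apoptosis genes. In pair 1 the apoptosis median was the higher one, and in pair 2 it was the lower one. No order of the 2 roles was shared by both bone marrow pairs.

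Ccng1, cyclin G1, which recruits a phosphatase to MDM2, kept 1 direction throughout, but by little. It read 1.45 and 1.52 in fetal liver WT and KO. In bone marrow it read 2.45 (table) or 2.28 (scanner) in WT 1, 2.50 in KO 1, 2.85 in WT 2 and 2.89 in KO 2. KO was above WT in each pair. The bone marrow difference was 0.04 ± 0.29 with the table (limma, adjusted p = 0.993) and 0.13 ± 0.42 with the scanner files (adjusted p = 1.00).

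By measured values 1 of 28 members, Polk, was at least 2-fold above WT in fetal liver, where the background was 5.33% of genes. For Polk, a translesion DNA polymerase, a 2-fold difference was not established. Its brightest probe read -3.89 in WT, not well above background, and -2.51 in KO. A second Polk probe went the other way there, at -2.83 in WT and -3.35 in KO, so no bound is given. In bone marrow Polk read -1.61 (table) or -2.09 (scanner) in WT 1, -2.03 in KO 1, -0.95 in WT 2 and -1.53 in KO 2. The difference was -0.50 ± 0.34 with the table (limma, adjusted p = 0.784, and 0.161 with the block) and -0.25 ± 0.53 with the scanner files (adjusted p = 1.00). Ercc5, the XPG nuclease of nucleotide excision repair, read -1.83 in WT and -2.41 in KO of fetal liver. The bone marrow levels were -0.94 (table) or -0.27 (scanner) in WT 1, -1.03 in KO 1, -0.67 in WT 2 and -0.58 in KO 2. Rrm2b differed by -0.09 and 0.52 in the table's pairs.

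Btg2, an antiproliferative cofactor, and the stress-induced kinase genes Plk2 and Plk3 are also immediate early genes or respond with them. Btg2 read 2.23 and 2.22 in fetal liver WT and KO. Its bone marrow levels were 4.88 (table) or 4.18 (scanner) in WT 1, 4.12 in KO 1, 1.78 in WT 2 and 2.81 in KO 2. KO was below WT by 0.76 in pair 1 (table) and above it by 1.02 in pair 2. Plk2 likewise differed by -1.41 and 0.52. Sertad1, a cell cycle regulator, differed by 0.12 and 0.59, and Plk3 by -0.44 and -0.01. In pair 1 with the scanner file Btg2, Plk2, Sertad1 and Plk3 differed by -0.06, -1.51, -0.15 and -0.24 in that order. A list of 17 immediate early genes such as Fos, Jun and Egr1, which respond to handling and stimulation of cells, was read beside them. Its summed level was 507 and 415 in fetal liver, 1950 (table) or 1551 (scanner) and 1554 in pair 1, and 322 and 445 in pair 2. In the table's pair 1, 1 of its 16 measured genes was higher in KO, with a median of -0.28, and in pair 2, 13 of 16, with a median of 0.59. In pair 1 with the scanner file it was 9 of 16, with a median of 0.12. Their part in the Btg2, Plk2, Plk3 and Sertad1 values was not tested.

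**Figure D3:**
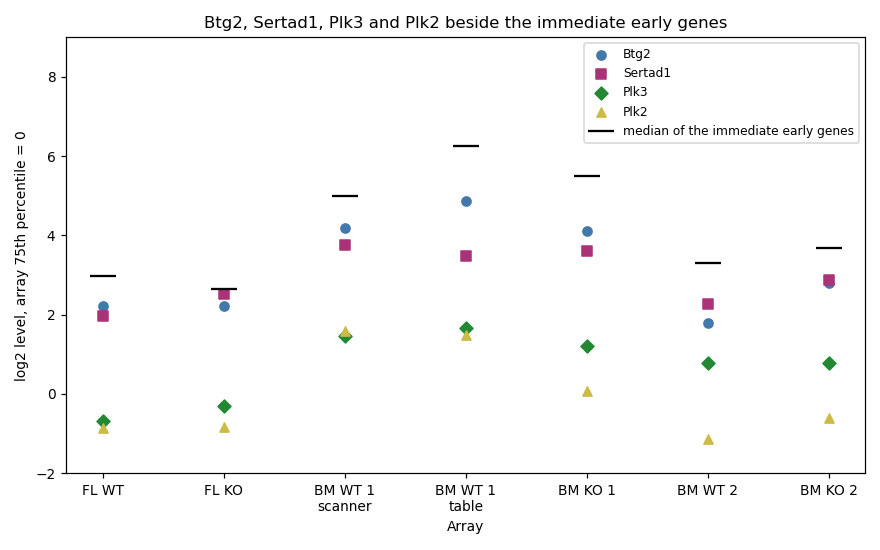
Levels of Btg2, Sertad1, Plk3 and Plk2 (log2, array 75th percentile at 0) on each array, with the median level of the immediate early genes as a black bar. The bar and Btg2 stand highest on the bone marrow pair 1 arrays, where Btg2 read 4.88 (table) and 4.12, and lower on the pair 2 and fetal liver arrays.

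Gtse1, which binds p53 in the G2 phase, differed by 0.35 and -0.64 in the table's pairs and by -0.30 in fetal liver. A list of 20 genes of G2 and mitosis was higher in KO for 17 of 20 in the table's pair 1 (median 0.21), for 0 of 20 in pair 2 (median -0.41) and for 1 of 19 in fetal liver (median -0.22). Of 18 S phase genes 12, 0 and 5 were higher, with medians of 0.09, -0.27 and -0.07. The part of the cell cycle state in the Gtse1 values was not tested.

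Mdm2, the ubiquitin ligase that p53 induces and that limits p53, was close to level. It read 3.71 and 3.94 in fetal liver WT and KO. On the bone marrow arrays it read 3.98 (table) or 3.80 (scanner) in WT 1, 3.98 in KO 1, 4.34 in WT 2 and 4.04 in KO 2. The WT and KO arrays overlapped and the difference was -0.15 ± 0.26 with the table and -0.06 ± 0.40 with the scanner files (limma, adjusted p = 0.981 and 1.00).

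Tigar and Pvt1 were the other members that were lower in both bone marrow pairs by about 2-fold or more in the table. Tigar encodes a phosphatase that lowers glycolysis and favours the pentose phosphate pathway. It read 1.27 in WT and 1.33 in KO of fetal liver. Bone marrow gave 0.03 (table) or -0.08 (scanner) in WT 1, -0.93 in KO 1, -0.05 in WT 2 and -1.14 in KO 2. Both KO arrays lay below both WT arrays, with either source. The difference was -1.03 ± 0.25 with the table, a 2.04-fold lower level, at an adjusted p of 0.191, and 0.0308 with the block (limma). With the scanner files it was -0.97 ± 0.36 at an adjusted p of 1.00, and 0.955 with the block. A second Tigar probe gave 0.60 in fetal liver, -0.91 in pair 1 from either source and -1.14 in pair 2. The interaction with tissue was -1.08 ± 0.44 with the table (adjusted p = 0.733, and 0.180 with the block).

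Pvt1, a long noncoding RNA gene next to Myc, was the only member lower in KO by at least 2-fold in fetal liver, or 1 of 28, where the background was 4.45% of genes. It read 0.15 in WT and -1.07 in KO there. In bone marrow it read 0.76 (table) or -0.36 (scanner) in WT 1, -0.62 in KO 1, 0.55 in WT 2 and -0.70 in KO 2. Every KO array lay below every WT array. The bone marrow difference was -1.31 ± 0.25 with the table, a 2.48-fold lower level, at an adjusted p of 0.110, and 0.0164 with the block (limma). By the scanner files it was -0.75 ± 0.46 at an adjusted p of 1.00, and also with the block. Over both tissues in 1 model the difference was -1.28 ± 0.17 with the table (6 arrays, limma, adjusted p = 0.106). In that model no member passed with the table, while 0.170% of genes did, or 23 genes, against 0 genes with the block. At an unadjusted p under 0.05 there were 2 members and 1401 of 13502 genes. With the scanner files no member and 0% of genes passed, and 1 member and 465 of 13663 genes had an unadjusted p under 0.05. A second Pvt1 probe gave smaller differences, -0.40 in fetal liver, -0.32 in pair 1 by the table, 0.25 by the scanner file and -0.73 in pair 2.

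In bone marrow, where Pmaip1, Tigar and Pvt1 were lower in KO, the summed levels of neutrophil and of monocyte and macrophage markers were lower too. Pvt1 was also lower in KO of fetal liver. The summed level of 14 neutrophil markers, Elane and Mpo among them, went from 2466 (table) or 1920 (scanner) to 538 in pair 1 and from 1323 to 171 in pair 2, with 12 to 14 of 14 above background. That of 10 monocyte and macrophage markers went from 181 (table) or 681 (scanner) to 51.7 and from 107 to 46.0, with 9 or 10 of 10 above background. In fetal liver the same sums were 4097 in WT and 3763 in KO for neutrophil markers, and 155 and 145 for monocyte markers. There 8 of 13 measured neutrophil markers and 5 of 10 monocyte and macrophage markers were higher in KO, with medians of 0.13 and 0.02. By gene, none of 13 measured neutrophil markers was higher in KO in either pair of the table, while 4 of 10 monocyte and macrophage markers were in pair 1 and 2 of 10 in pair 2. Of 12 measured erythroid markers 10 were higher in KO in each pair of the table, with medians of 2.78 and 1.09, against 6 of 12 and a median of -0.28 in pair 1 with the scanner file. Of 14 stem and progenitor markers 12 and 11 were higher, with medians of 0.72 and 0.58. In such bulk samples, fewer cells of a type and less RNA per cell cannot be told apart. The part of any of these cells in the differences of the 3 genes was not tested.

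**Figure D4:**
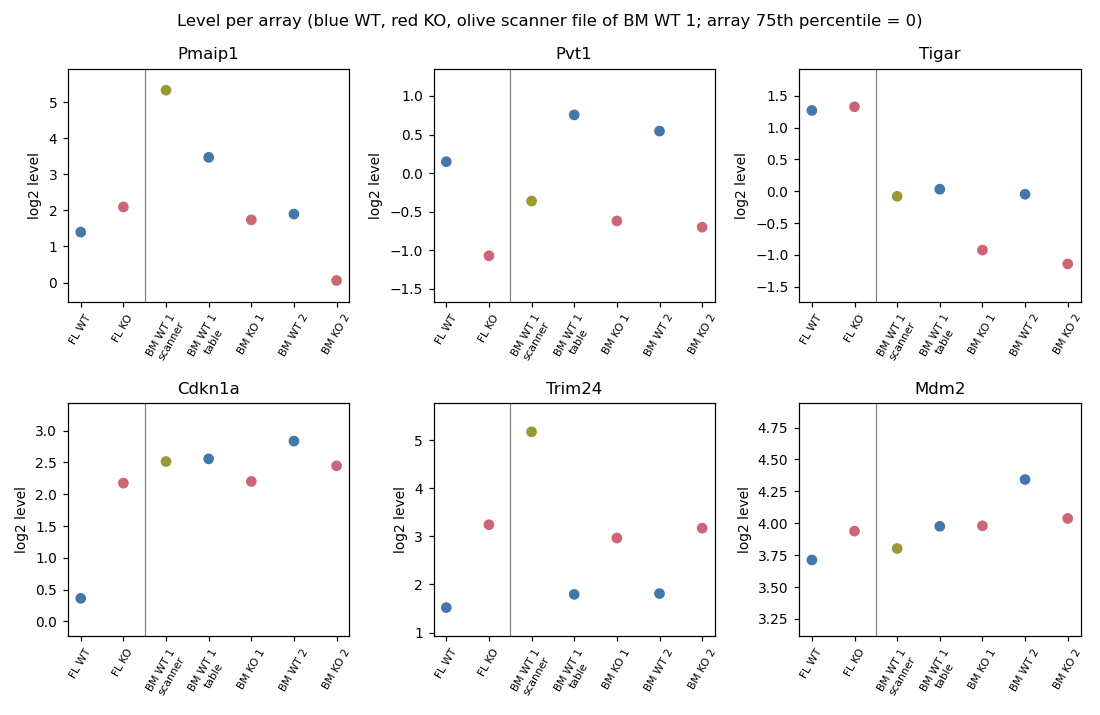
Level (log2, array 75th percentile at 0) of 6 genes on each array, 1 panel per gene, with WT in blue, KO in red and the scanner file of bone marrow WT 1 in olive. Panels have their own vertical range. Pvt1 is lower in KO in all pairs, Pmaip1 and Tigar are lower in bone marrow KO, Cdkn1a is higher in fetal liver KO, Trim24 is higher in KO except against the olive point, and Mdm2 differs little.

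The other genes of this role were close to level or changed sign with the source. The sestrins Sesn1 and Sesn2, which restrain mTORC1, were higher in KO in both pairs of the table, by 0.31 and 0.35 and by 0.42 and 0.31. In pair 1 with the scanner file their differences were -0.14 and -0.32. Zmat3, an RNA-binding zinc finger protein, differed by 0.20 and -0.03 but separated the slides, with -1.20 (table) in WT 1 and 1.42 in WT 2, and a gap of KO 1 minus KO 2 of -2.39. Dcxr, a carbonyl reductase, differed by 0.07 and 0.18. Rps27l, a ribosomal protein paralog, differed by -0.39 and -0.47 in the table's pairs and by 0.84 in pair 1 with the scanner file. In fetal liver these 5 genes differed by 0.12, 0.38, -0.32, -0.06 and -0.34 in the order named.

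Cd80, a T cell costimulatory ligand, had 2 probes that disagreed. Its brighter probe differed by 0.52 in fetal liver, -0.25 in pair 1 (table) or -1.18 (scanner), and -0.45 in pair 2. Its dimmer probe was well above background only on the WT arrays in the scanner files. That probe read -2.16 in WT and -5.49 in KO of fetal liver, and -4.22 and -7.08 in pair 2. In pair 1 it read -1.72 by the scanner file and -6.51 by the table in WT, and -6.13 in KO. What the dimmer probe detects was not tested.

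With the value table and no block, more members passed between the tissues than between the genotypes, and so did more of all genes. Between bone marrow and fetal liver 10 of 29 passed (limma, tissue and genotype in 1 model, 6 arrays). The background was 22.8% of 13502 genes, against 0.939% between the genotypes in bone marrow. With the scanner files 0 of 29 passed, and the background was 2.11%. There 13 members had an unadjusted p under 0.05, beside 3689 of 13663 genes. Left without bone marrow WT 1, 8 of 29 passed, beside 13.3% of genes. With the table and the slide as a random block, 0 of 29 members and 829 of 13502 genes passed. An unadjusted p under 0.05 was found for 11 members, beside 4027 genes. Tissue, slide and Cre driver cannot be told apart, since fetal liver lies on 1 slide of its own. The adjusted p of the 10 with the random block lay between 0.0502 and 0.129. Without bone marrow WT 2, 4 of 29 passed with the table, beside 9.09% of genes: Cd80, Fas, Rrm2b and Tigar.

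Of the 10, 8 were higher in bone marrow and 2 lower, or 8 and 2 of 29, where 8.89% of all genes passed as higher and 13.9% as lower. Trp53inp1 read -0.37 and -0.03 in fetal liver and 1.48 (table) or 2.65 (scanner), 1.59, 2.22 and 3.00 in bone marrow, in the order WT 1, KO 1, WT 2 and KO 2. This was 2.27 ± 0.45 higher with the table (limma, adjusted p = 0.0239). Fas, with the values above, was higher by 1.84 ± 0.32 (adjusted p = 0.0171), but only 1 of the 2 fetal liver arrays, the KO array, measured it well above background. Plk3 read -0.68 and -0.30 in fetal liver and 1.66 (table) or 1.46 (scanner), 1.22, 0.78 and 0.78 in bone marrow, and was higher by 1.60 ± 0.33. Ei24 read -0.01 and -0.25 in fetal liver and 0.60 (table) or 0.37 (scanner), 0.77, 1.11 and 1.08 in bone marrow, and was higher by 1.02 ± 0.24. For each of these genes the fetal liver and bone marrow arrays did not overlap.

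Ercc5 was higher in bone marrow by 1.31 ± 0.25, Ccng1 by 1.19 ± 0.22 and Bbc3 by 1.07 ± 0.23 with the table. Rrm2b read -4.12 and -5.28 in fetal liver, not well above background, and -2.87 (table) or -2.73 (scanner), -2.96, -3.40 and -2.87 in bone marrow. It thus counts among the 10 although it was well above background on neither fetal liver array. Its adjusted p was 0.0313 with the table, and the bound was at least 1.20-fold higher with the table and at least 1.23-fold with the scanner files. Tigar and Cd80 were lower in bone marrow. For Tigar, with the values above, the difference was -1.82 ± 0.29 (adjusted p = 0.0146). Cd80 read 1.95 and 2.46 in fetal liver and 0.59 (table) or 1.53 (scanner), 0.35, 0.53 and 0.08 in bone marrow, a difference of -1.82 ± 0.26 (adjusted p = 0.0111). By role, 4 of 11 apoptosis genes and 4 of 8 arrest and repair genes were higher in bone marrow, and none of them was lower. Of the 10 other genes, 2 were lower and none was higher. The members' median tissue difference was 0.46 with the table, beside -0.26 over all genes.

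**Figure D5:**
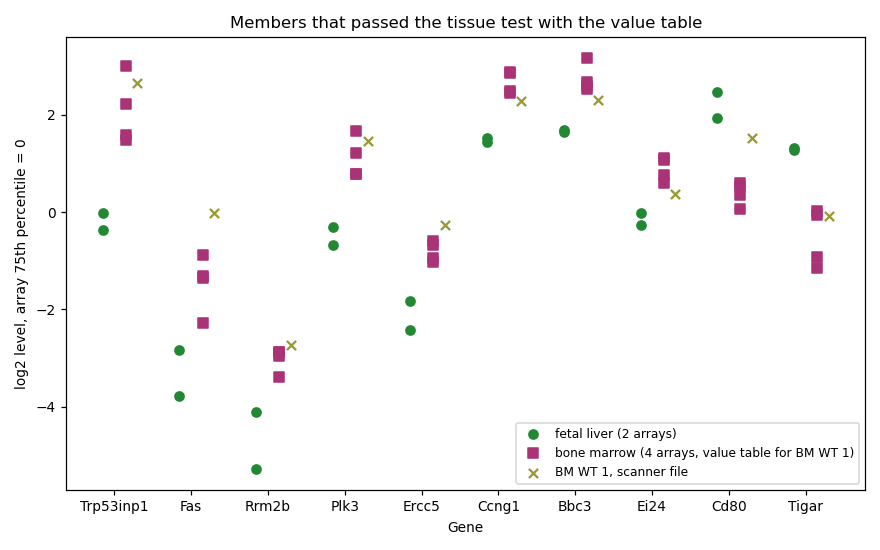
Levels (log2, array 75th percentile at 0) of the 10 members that passed between tissues with the value table, on the 2 fetal liver arrays (circles) and the 4 bone marrow arrays (squares), with the scanner file of bone marrow WT 1 as a cross. The squares lie above the circles for the 8 genes on the left and below them for Cd80 and Tigar.

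Marker levels of other cell types are given beside these results. The summed level of 13 erythroid markers was 704 and 1178 in fetal liver, and 38.1 (table) or 1825 (scanner), 480, 51.6 and 120 in bone marrow. That of 10 hepatocyte markers was 46.4 and 31.8 in fetal liver and 27.3 to 77.9 in bone marrow with the table. Alb, which defines hepatocytes, read -0.42 and -2.19 in fetal liver and was at most -5.78 in bone marrow. Of 9 hepatocyte markers tested between the tissues, 7 were lower in bone marrow with the table (limma) and none was higher, with a median of -3.22, and 3 were lower with the scanner files. On the fetal liver arrays 8 and 6 of the 10 were well above background, and on the bone marrow arrays 3 to 5. The summed level of 14 stem and progenitor markers was 343 and 331 in fetal liver and 322 to 448 in bone marrow with the table. By gene, 7 of the 14 were higher in bone marrow with the table and none was lower, with a median of 1.30, and 1 (Thy1) was higher with the scanner files. The summed level of 13 T and NK markers was 80.0 and 104 against 84.5 to 161. The part of other cell types in the tissue differences was not tested.

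p53 itself and its regulators, a further list of 31 genes, held 1 gene that passed between the genotypes in bone marrow, and 2 with the slide as a block. Trp53, which encodes p53, differed by -0.32 in fetal liver, -0.11 (table) or 0.59 (scanner) in pair 1 and -0.41 in pair 2. In bone marrow 1 of 30 regulators tested passed with the table and none of 31 with the scanner files (limma). The background was 0.939% and 0% of genes. With the block Cdkn2a and Trim24 passed with the table, or 2 of 30, both higher in KO, and none with the scanner files. The background there was 7.74% and 0% of genes. Without the block the one was Cdkn2a, whose ARF product blocks MDM2. It was higher in KO by 3.96 ± 0.42 (adjusted p = 0.0252), and by 2.42 ± 0.73 (adjusted p = 1.00) with the scanner files. It was not well above background in WT 1 of the table, at -5.58, or in fetal liver, so 1 of the 2 WT arrays, WT 2 at -4.46, measured it there. Cdkn2a thus entered the table's test through the KO arrays, where it is high. The size of 3.96 rests in part on a signal not above background. The files do not say which of its transcripts the probe reads. A second Cdkn2a probe was well above background on no array. Between tissues, Atm and Atr, the kinases that sense DNA damage, were higher in bone marrow and Mdm4, a partner of MDM2, was lower with the table. They were 3 of 30 regulators tested, where the background was 22.8% of genes, and with the scanner files 0 of 31 passed.

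Cdkn1a, the p21 inhibitor of cyclin-dependent kinases, is the best-known p53 target and stands outside the 31. It read 0.36 in WT and 2.18 in KO of fetal liver, a 3.52-fold higher level on 1 array against 1. A second Cdkn1a probe was well above background on neither fetal liver array, at -5.47 and -5.53. The bone marrow levels were 2.56 (table) or 2.51 (scanner) in WT 1, 2.20 in KO 1, 2.84 in WT 2 and 2.45 in KO 2. The bone marrow pairs thus differed by -0.35 and -0.39 with the table. The interaction with tissue was -2.18 ± 0.47 (limma, adjusted p = 0.284, and 0.0420 with the block) with the table and -2.16 ± 0.67 (adjusted p = 1.00) with the scanner files. Of 30 regulators tested with the table and the block, Cdkn1a and Cdkn2a passed the interaction, beside 2.80% of all genes.

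Trim24, a ubiquitin ligase for p53 and a relative of Trim28, was higher in KO by 1.72 in fetal liver and by 1.17 and 1.36 in the bone marrow pairs of the table. It read 1.52 and 3.24 in fetal liver, and 1.79 (table) or 5.17 (scanner), 2.97, 1.81 and 3.17 in bone marrow. In pair 1 with the scanner file the difference was -2.21. Over bone marrow with the table it was 1.27 ± 0.25 (limma, adjusted p = 0.119, and 0.0188 with the block). A second Trim24 probe gave 1.69, 1.17 and 1.40, and -2.44 with the scanner file.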

How the data were processed

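RNA of 6 samples was measured on Agilent 1-colour arrays. Spot intensity was deposited as background-corrected gProcessedSignal, per the file headers. The submitters' processing notes name Agilent Feature Extraction, version 10.7.1.1. The authors' deposited value table holds a linear ratio, found here to be the signal over about the array's 75th percentile, with no centring of genes. Its direction is that of the signal, and why 1 column departs from its scanner file is unknown. The column medians are 0.0705 and 0.0709 (fetal liver WT and KO), 0.057 and 0.056 (bone marrow pair 1), and 0.063 and 0.064 (pair 2).

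Here log2 signals were scaled to the 75th percentile over probes, without control and outlier-flagged spots. RefSeq accessions named 26762 of 55681 probes. For the departing column, a level of -3.7 replaced the flag. It matched 99.1% of flags on the bone marrow KO array of that slide. Genes were tested with limma 3.58.1 (lmFit, eBayes, Benjamini-Hochberg) under R 4.3.3, after a check on simulated data. Tables were read with data.table, version 1.17.8. Scripts used pandas 2.3.3, numpy 2.4.6 and matplotlib 3.10.9. A bound on a fold sets the dim side of each array at its lowest signal well above background, or at the probe's own signal if that is higher. The number of arrays limits the precision.

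Deviations of the same-numbered bone marrow arrays from their group means correlated over genes, which are not independent replicates, at 0.562 by the table and 0.0467 with the scanner files. The pairing comes from the shared slide, and the slide was the replicate block. The alternatives were quantile scaling, normexp (offset 50, on the median signals, chosen after seeing that the files hold no mean signal column), other probe filters, the mean of all probes, the block, and leaving out each bone marrow array.

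The members and lists were chosen with earlier results of these data known. Values on every array are given for 5 core targets, members that passed a fit, and the 6 with the largest difference in either tissue (in bone marrow, of 1 sign in both pairs of the table). Trim28, Trp53, Cdkn1a and p53 regulators that passed or were over 2-fold apart in both pairs of the table are named as well. Cd80's dimmer probe, Btg2 and Zmat3 were singled out after their values were seen.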

Additional observations from a re-analysis of the deposited data

Results flagged for a closer look

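For 7 genes the KO minus WT difference in fetal liver had the opposite sign to both bone marrow pairs, with either source for bone marrow WT 1. They were 4 of the 28 p53 target genes measured in both tissues, or 14.3%, and 3 of 29 genes of the p53 regulator list, or 10.3%. Over all 12707 genes measured in fetal liver, 17.1% had such opposite signs. That total was not limited to genes also measured in bone marrow. The size of the difference between tissues is the interaction with the value table, and each fetal liver value rests on 1 WT and 1 KO array. For Pmaip1 the interaction was -2.49 (limma, adjusted p = 0.969, and 0.0341 with the slide as a block). For Cdkn1a it was -2.18 (adjusted p = 0.284, and 0.0420 with the block). In the blocked fit 2.80% of all genes passed. For Tigar the interaction was -1.08 (adjusted p = 0.733, and 0.180 with the block). Its fetal liver difference was 0.06 by the brightest probe and 0.60 by the second probe. For Cd80 it was -0.87 (adjusted p = 0.950, and 0.287 with the block) and for Plk3 -0.60 (adjusted p = 1.00, and 0.576 with the block). The pair 2 difference of Plk3 was -0.01. The opposite sign of Cd80 rests on its brighter probe. Its dimmer probe differed by -3.33 in fetal liver, -4.41 (scanner) or 0.38 (table) in pair 1, and -2.86 in pair 2. That probe was well above background on no KO array. For Mdm4 the interaction was -0.28 (adjusted p = 1.00, and 0.842 with the block) and for Rchy1, a ubiquitin ligase for p53, 0.48 (adjusted p = 1.00, and 0.670 with the block). Their fetal liver differences were 0.19 and -0.04.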

How the results depend on the processing

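With 2 arrays per group, single arrays moved several counts of members passing (limma). With bone marrow arrays left out in turn, KO against WT gave 0 to 3 members with the scanner files (Plk2, Pmaip1 and Tnfrsf10b without WT 2) and 0 to 2 with the table. The interaction with the scanner files gave 0 to 1, and the tissue effect 0 to 8 with the scanner files and 4 to 8 with the table. With the replicate block the table gave 3 members in bone marrow and 1 for the interaction. The slide as a random block gave 0 for the tissue effect with the table, and a filter on every array gave 1 (Tigar) with the scanner files. The members' median bone marrow difference was -0.0851 with the scanner files and no filter and -0.0997 with the table and quantile scaling, and ranged from -0.147 to -0.0341 and from -0.135 to -0.0456 with arrays left out. The apoptosis median minus the arrest and repair median in pair 1 of the scanner file was 0.257 with quantile scaling, 0.189 with the mean of all probes and 0.228 with the table. The cause was not tested. Pmaip1, Tigar and Pvt1 were lower in bone marrow KO under every alternative run with either source.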
